A study of Homo sapiens with 2 samples.

Results

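NUDT21 eCLIP-seq peaks in the genes of eukaryotic translation initiation factors, whose symbols begin with EIF, are described here. A peak was a member when its midpoint lay in the body of a GENCODE 44 protein-coding gene with such a symbol, readthrough genes left out. The deposited list held 20499 peaks, and 117 of them were members. They lay in 24 of the 56 EIF genes (42.9%), and 33.4% of all 19396 protein-coding genes held a peak. Whether these shares differ was not tested. The members were chosen by gene name and position, without use of any peak value.

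The study asked where NUDT21 contacts RNA in J-Gamma1 cells, an established line derived from Jurkat whose label gives T-ALL, an acute leukemia of T-lineage cells. eCLIP-seq crosslinks protein to RNA with UV light, pulls down the complexes with an antibody and sequences the recovered RNA. The series had 1 library made with a NUDT21 antibody and 1 input library of the same line, and both came from total RNA of cells irradiated on ice at 254 nm (400 mJ, 2 irradiations), with lysis over 15 min and digestion by RNase I (40 U, 5 min, 37 °C). The analysis used the list of peaks from the antibody sample alone, with the input not used here, so there was no replicate, no comparison of conditions and no test, and the depth was unknown.

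Initiation factors bring the ribosome to the start codon of an mRNA. The eIF4 group binds the cap and unwinds the leader, eIF3 and the ternary complex of eIF2, GTP and initiator tRNA load the small subunit, and eIF5B joins the large subunit. Phosphorylation of eIF2 by its kinases, which blocks the exchange factor eIF2B, and sequestration of the cap-binding protein eIF4E are the main brakes on the pathway. NUDT21 is the subunit of cleavage factor I that recognises UGUA upstream of poly(A) sites.

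Each peak had a Score, a fold enrichment, a p-value and an FDR. Score, a height whose unit was not given, took whole multiples of 0.228, called steps here. Fold enrichment was the authors' ratio, which fitted Score plus 1 over a local background plus 1. The p-values and FDR were those of the peak caller within this library and hold no spread between replicates. The FDR was 1 for all members but 3, in EIF2S3 (0.0214), EIF3A (0.218) and EIF5B (0.891). The list had no strand, so a peak was given to a gene by position and sequence was read on the strand of that gene. A peak needs both RNA and contact, so the number of peaks in a gene mixes how much of its RNA was present with how much was bound, and these cannot be told apart here. Of 12 T-cell marker genes, CD3E, CD247, ZAP70, PTPRC and NOTCH1 held a peak and the other 7, LCK and CD3D among them, did not. The share with a peak was thus 41.7%, beside 33.4% of all protein-coding genes. None of 4 myeloid and none of 4 erythroid marker genes held one, and of 5 B-cell genes only CD79B did, with 1 peak of 1 step in an intron.

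The sequences below are examples of the RNA under the members and do not show how frequent each kind was. In the first set, from hg38 and on the gene strand, capitals mark runs of 8 or more A or G. Such a run was found in 9 of the 14 CDS peaks of EIF3A and 12 of the 14 of EIF5B (21 of the 28 together). It was found in 10 of the 34 CDS peaks of the other EIF genes (29.4%), and in 47.7% of all 6348 pairs of a peak and CDS. EIF3A and EIF5B thus lay above the share of all pairs, and the other EIF genes below it. The EIF3A peaks of exons 17 and 20 are followed by its taller peak of exon 7, which has no such run, and then by EIF5B peaks of exons 4, 11 and 17 and a peak of EIF4E2. Some peaks run into the adjoining intron, and runs were counted and marked over the whole peak, intron bases included. Of the 240 nt of the EIF3A exon 17 peak, 152 were exonic.

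EIF3A exon 17, chr10:119049834-119050073, minus strand: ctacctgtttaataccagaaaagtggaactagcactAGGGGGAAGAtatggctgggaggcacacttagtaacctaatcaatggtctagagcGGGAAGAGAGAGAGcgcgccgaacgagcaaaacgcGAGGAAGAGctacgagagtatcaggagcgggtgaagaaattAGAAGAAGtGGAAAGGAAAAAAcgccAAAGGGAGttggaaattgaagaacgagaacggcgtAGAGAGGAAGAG
EIF3A exon 20, chr10:119038289-119038413, minus strand: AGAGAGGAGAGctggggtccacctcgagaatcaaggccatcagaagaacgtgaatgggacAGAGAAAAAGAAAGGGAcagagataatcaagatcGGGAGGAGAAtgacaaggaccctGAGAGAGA
EIF3A exon 7, chr10:119065376-119065492, minus strand: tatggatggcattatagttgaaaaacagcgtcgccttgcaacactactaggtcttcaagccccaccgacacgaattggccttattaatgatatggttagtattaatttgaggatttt
EIF5B exon 4, chr2:99361650-99361824, plus strand: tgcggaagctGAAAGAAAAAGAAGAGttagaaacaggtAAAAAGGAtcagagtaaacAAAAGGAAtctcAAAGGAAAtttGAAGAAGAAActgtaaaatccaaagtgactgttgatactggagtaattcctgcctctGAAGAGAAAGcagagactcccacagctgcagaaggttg
EIF5B exon 11, chr2:99379035-99379147, plus strand: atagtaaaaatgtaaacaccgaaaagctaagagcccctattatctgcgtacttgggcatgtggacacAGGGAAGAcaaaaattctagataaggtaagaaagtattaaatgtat
EIF5B exon 17, chr2:99390574-99390734, plus strand: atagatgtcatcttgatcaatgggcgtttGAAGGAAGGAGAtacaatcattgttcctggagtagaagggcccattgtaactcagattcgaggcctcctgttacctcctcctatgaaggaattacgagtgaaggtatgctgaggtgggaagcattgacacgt
EIF4E2 exon 2, chr2:232556448-232556531, plus strand: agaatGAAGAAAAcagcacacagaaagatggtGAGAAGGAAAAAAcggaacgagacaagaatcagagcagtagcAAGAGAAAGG

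The 3 copies of UGUA found in those 3'UTR peaks of EIF genes whose midpoint lay in no annotated CDS are shown next. The windows are 30 bases of hg38, with UGUA, written TGTA in DNA letters, in capitals. As in the counts of runs above, a midpoint in both CDS and a 3'UTR was counted as CDS.

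EIF2AK4, chr15:40035136-40035165, plus strand: aataatggaatgtTGTAcattcatcataat
EIF5B, chr2:99399446-99399475, plus strand: tgcaatactgtgtTGTAatatcccaacaaa
EIF5B, chr2:99399533-99399562, plus strand: gaagaaaaataggTGTAtaaaatgttttcc

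The members were taller than the peaks of protein-coding genes at large. Of the 117 peaks, 93 (79.5%, exact 95% interval 71.0 to 86.4) had 5 or more steps, against 45.4% of 19642 pairs of a peak and a protein-coding gene. The median was 9 steps in EIF genes and 3 over all pairs, and the median fold enrichment was 2.45 and 1.61. The median length was 102 nt in EIF genes and 144 nt over all pairs, but among peaks with 5 or more steps it was 84 nt and 76 nt. Without EIF3A and EIF5B, 71.8% of the remaining 85 members had 5 or more steps. Intervals cover counting error only, and no test was made of these differences.

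Coding sequence (CDS) held the most members, but not once EIF3A and EIF5B were left out. When the midpoint was assigned to a 3'UTR of any transcript before CDS, 46 members (39.3%, 30.4 to 48.8) lay in CDS, where the share over all pairs was 22.5%. In the same order 32 (27.4%, 19.5 to 36.4) lay in 3'UTRs, beside 29% over all pairs, 2 in 5'UTRs and 37 in introns. With CDS placed before UTRs, CDS held 62 members (53.0%, 43.5 to 62.3) against 32.3% over all pairs, and 3'UTRs held 17. The difference of 15 peaks lay in CDS of one transcript and the 3'UTR of another. EIF3A and EIF5B held 28 of the 62 CDS peaks. Without them, the first order gave 41.2% of 85 members in introns, 35.3% in 3'UTRs and 21.2% in CDS, the last below the share over all pairs. With CDS first, 34 of the 85 (40%) lay in CDS, above the 32.3% of all pairs, and 35 in introns. Regions below place CDS before UTRs.

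**Figure D1:**
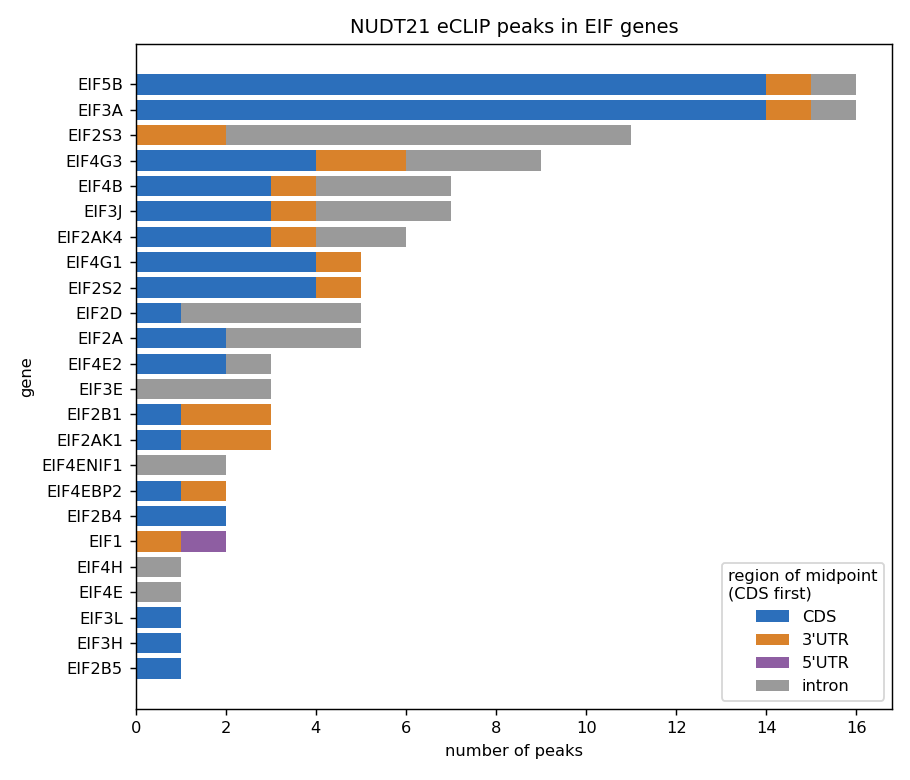
Number of NUDT21 eCLIP-seq peaks (x axis) in each of the 24 EIF genes with a peak (y axis), coloured by the region of the peak's midpoint with CDS before UTRs. EIF3A and EIF5B have 16 peaks each, 14 of them in CDS, while EIF2S3 has 11 peaks and none in CDS.

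The scanning, start codon and subunit joining factors held 23 peaks in 3 of 9 genes. EIF5B, the GTPase that joins the ribosomal subunits, had 16 peaks, of which 14 lay in CDS, from exon 1 to exon 23 of 24. Their height ran from 8 to 17 steps and their fold enrichment from 2.09 to 4.03. The tallest, in exon 17, had 17 steps, a fold enrichment of 3.93 and a caller p-value of 0.000114. The peak of exon 11 had the highest fold enrichment of the gene, 4.03 at 15 steps, with a caller p-value of 3.28e-06 and an FDR of 0.891. Its 3'UTR peak (chr2:99399402-99399586, caller p-value 0.000137) lay 80 nt past the stop codon and had 11 steps, a fold enrichment of 3.20, a length of 185 nt and the pair of UGUA copies printed above. Of its 16 peaks 8 held UGUA, the most of any EIF gene.

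EIF1, which guards the choice of start codon, had 1 peak in the 5'UTR and 1 in the 3'UTR, both 48 nt long. The 5'UTR peak (chr17:41688950-41688997) had 15 steps, a fold enrichment of 2.20, a caller p-value of 0.0195 and a purine share of 20.8%, the lowest of all members. The 3'UTR peak (chr17:41691168-41691215) had 17 steps and a fold enrichment of 2.26, with a caller p-value of 0.0298. Its midpoint was 365 nt past the stop codon and 21 nt from the end of an annotated shorter transcript, the closest of any member to an annotated end. EIF2D, which delivers tRNA to the ribosome without eIF2, had 5 peaks. Of these, 3 peaks of 6 to 10 steps lay in introns of a long EIF2D transcript and also on exons of RASSF5, a gene of the opposite strand, so their gene could not be assigned. The other 6 genes of the group, EIF1AX, EIF5 and EIF6 among them, held no peak.

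The ternary complex group, in which EIF2A was counted with the eIF2 genes, held 21 peaks in 3 of 5 genes. The subunits of eIF2 differed in where their peaks lay. EIF2S2 encodes the beta subunit, and its 5 peaks were all exonic, with 4 in CDS and 1 in the 3'UTR. Its peak over the end of the coding region (chr20:34089638-34089894, midpoint 36 nt before the stop codon) was the tallest member, with 21 steps, a fold enrichment of 2.89, a caller p-value of 0.00366 and a length of 257 nt. The 3'UTR peak (chr20:34089517-34089588, caller p-value 0.019) lay 178 nt past the stop codon, with 14 steps, a fold enrichment of 2.09 and 72 nt. A CDS peak in exon 4 had the same Score and fold enrichment as the 3'UTR peak. All EIF2S2 peaks but that of exon 1 also lay in an intron of RALY on the opposite strand. EIF2S1, the alpha subunit that the kinases phosphorylate, had no peak.

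EIF2S3, on chromosome X, encodes the gamma subunit that holds GTP and the initiator tRNA. It had 11 peaks, 9 in introns and 2 in the 3'UTR, and none in CDS. The last intron, 11 of 11 (chrX:24073264-24076721, 3458 nt), held 5 of them over 18.6% of its length. The tallest had 19 steps, a fold enrichment of 5.01, a caller p-value of 7.48e-09 and an FDR of 0.0214. It was the only member with an FDR under 0.05 (0.0967% of all pairs had one), and the only such peak among the 8172 pairs of a peak and an intron. It lay 978 nt from the nearest exon. The other 4 of the intron had 5 to 9 steps and fold enrichments of 1.99 to 2.87. The intron had 21 copies of UGUA, 5 of them in peaks, a density of 7.79 per kb within peaks and 5.68 per kb in the rest of the intron, and 2 copies of AAUAAA, both in its downstream part. The 3'UTR peaks were lower. The peak 549 nt past the stop codon (chrX:24077296-24077373, caller p-value 0.00942) had 5 steps, a fold enrichment of 1.87 and 78 nt, and that 868 nt past it (chrX:24077609-24077697, caller p-value 0.00942) had 7 steps, 2.27 and 89 nt. A further intronic peak, beside the first exon (chrX:24055032-24055173), had 12 steps and a fold enrichment of 3.56.

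**Figure D2:**
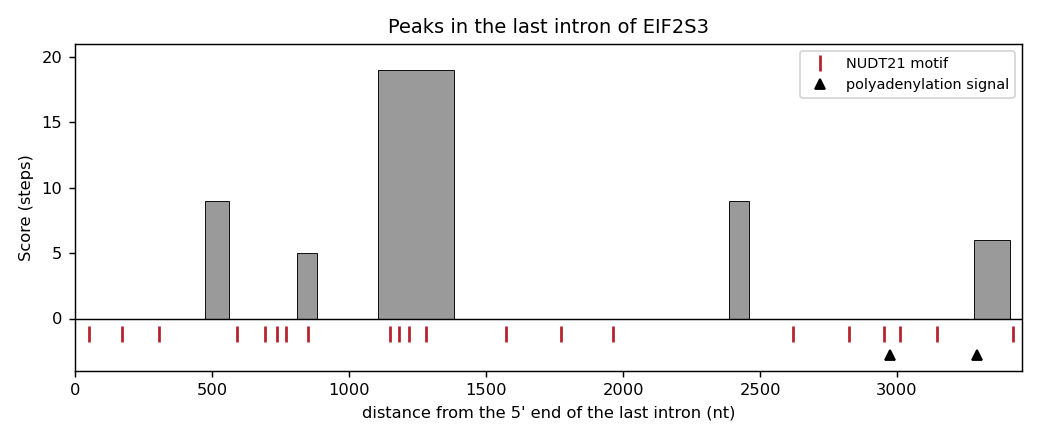
Peaks in the last intron of EIF2S3: the x axis is the distance from the 5' end of the intron in nt, the y axis the Score in steps, bars span each peak, red ticks mark UGUA and triangles AAUAAA. The peak of 19 steps ends at 1381 nt and spans 4 of the 21 UGUA copies. The AAUAAA copies lie further downstream, at 2975 and 3291 nt, the latter within the peak of 6 steps (3282 to 3412 nt). The intron also has 1 AUUAAA, not drawn.

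EIF2A, an alternative carrier of initiator tRNA, had 5 peaks of 1 to 6 steps, 2 in CDS and 3 in introns. All 5 also lay in an intron of SERP1 on the opposite strand. EIF2S3B, a copy of EIF2S3, had no peak.

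The genes of eIF2B, which recharges eIF2 with GTP, held 6 peaks in 3 of 5 genes, all of 6 to 9 steps and all exonic. EIF2B1 had 3 near its end. Its 3'UTR peaks, both at 9 steps, lay 153 nt past the stop codon (chr12:123621540-123621667, caller p-value 0.00492) and 355 nt past it (chr12:123621330-123621473, caller p-value 0.00193), with fold enrichments of 2.28 and 2.46 and lengths of 128 and 144 nt. EIF2B4 had 2 CDS peaks and EIF2B5 had 1. EIF2B2 and EIF2B3 had none.

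Of the eIF2 kinases, the heme-regulated EIF2AK1 and the amino acid sensor EIF2AK4 held 9 peaks, and the RNA-activated EIF2AK2 and the endoplasmic reticulum kinase EIF2AK3 held none. The tallest of EIF2AK1 was in exon 1 (chr7:6058926-6059030), with 12 steps, a fold enrichment of 3.26 and a caller p-value of 0.000447. Its 3'UTR peak 192 nt past the stop codon (chr7:6024427-6024535, caller p-value 0.00942) had 8 steps, a fold enrichment of 2.47 and 109 nt. The peak 331 nt past it (chr7:6024311-6024374, caller p-value 0.0162) had 6 steps, 1.99 and 64 nt. EIF2AK4 had 6 peaks, and its 3'UTR peak, 39 nt past the stop codon (chr15:40035070-40035176, caller p-value 0.000158), had 9 steps, a fold enrichment of 2.77, a length of 107 nt and 1 UGUA.

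The eIF3 genes held 28 peaks in 5 of 14 genes, with the highest median of the groups, 12 steps. Most of these peaks were in EIF3A. By gene the median was 12.5 steps in EIF3A, 9 in EIF3J and 1 in EIF3E. The single peaks of EIF3H and EIF3L had 15 and 8 steps. EIF3A, the largest subunit and a scaffold of the complex, had 16 peaks of 10 to 19 steps, with fold enrichments of 2.09 to 3.996. Peaks of 19 steps lay in exons 7 and 16, each with a fold enrichment of 2.66 and a caller p-value of 0.00366. The exon 17 peak reached the highest fold enrichment of the gene, 3.996 at 14 steps, with an FDR of 0.218. Exon 19, which encodes part of the charged repeats near the end of the protein, held 3 peaks of 12 to 13 steps. Its 3'UTR peak spanned the stop codon, with its midpoint 21 nt past the stop codon (chr10:119035961-119036076, caller p-value 0.019), and had 14 steps, a fold enrichment of 2.09 and 116 nt. The rest of the 3'UTR, 2369 nt in all, had no peak.

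EIF3J, a loosely bound subunit, had 7 peaks. The tallest was in the 3'UTR (chr15:44561326-44561407), 217 nt past the stop codon and 81 nt from an annotated end. It had 13 steps, a fold enrichment of 3.19 and a caller p-value of 0.00193. This peak also lay in an intron of SPG11 on the opposite strand. EIF3H had 1 CDS peak of 99 nt with 15 steps, a fold enrichment of 3.43 and a caller p-value of 0.000228. EIF3L had 1 CDS peak of 8 steps, also on an exon of a noncoding gene of the same strand, and EIF3E had 3 intronic peaks of 1 step. The other 9 genes of the group, EIF3B, EIF3C, EIF3CL, EIF3D, EIF3F, EIF3G, EIF3I, EIF3K and EIF3M, had none.

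**Figure D3:**
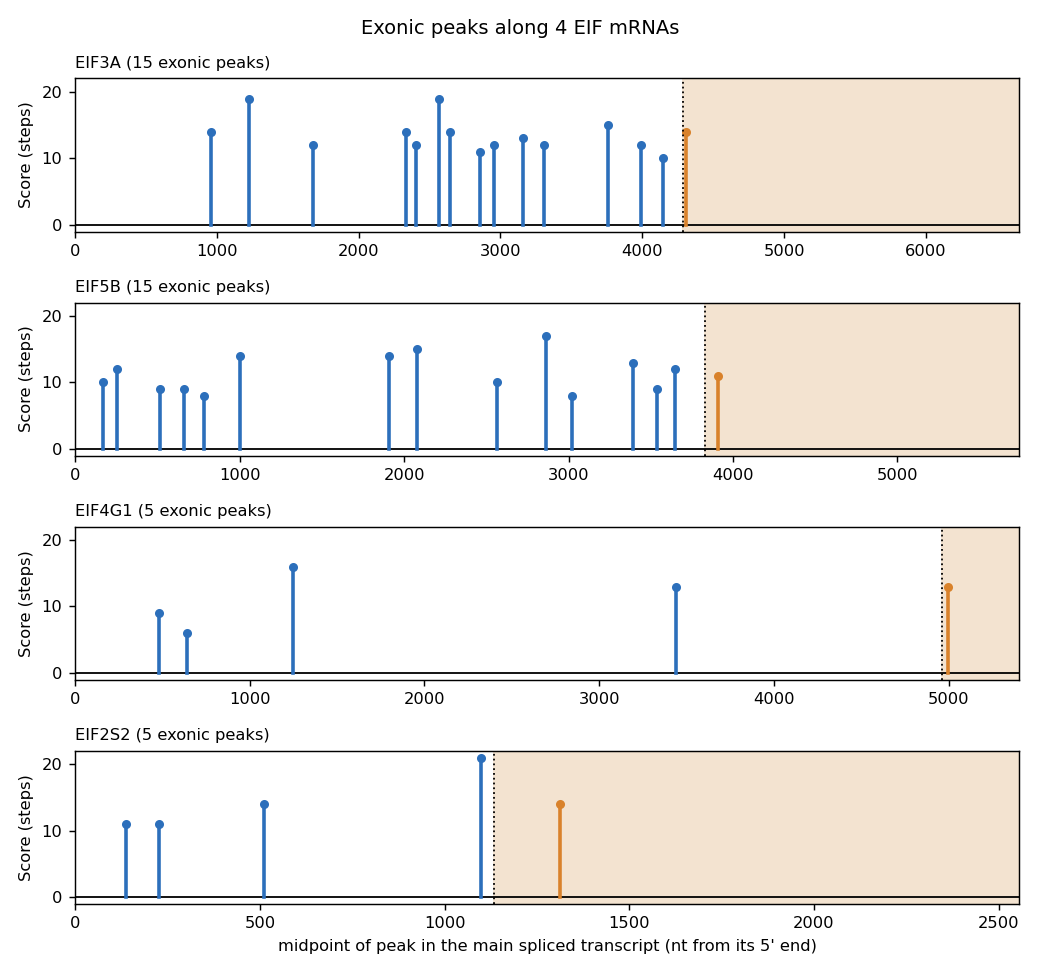
Exonic peaks along the main spliced transcript of EIF3A, EIF5B, EIF4G1 and EIF2S2: the x axis is the midpoint in nt from the 5' end, the y axis the Score in steps, blue marks CDS and orange 3'UTR peaks, and the shaded area past the dotted line is the 3'UTR. In all 4 the peaks lie in the coding region but for 1 each within 178 nt of the stop codon.

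The cap-binding and helicase factors held 26 peaks in 6 of 12 genes. EIF4G1 and EIF4G3 encode the scaffolds that bridge the cap and eIF3. EIF4G1 had 5 peaks, and the tallest was in exon 10 (chr3:184321610-184321729), with 16 steps, a fold enrichment of 2.56 and a caller p-value of 0.00971. Its peak in exon 7 (chr3:184319719-184319768), CDS here and the 5'UTR of another transcript, had 6 steps, a fold enrichment of 1.76 and a caller p-value of 0.0476. Its 3'UTR peak (chr3:184334900-184334986, caller p-value 0.0429), 35 nt past the stop codon and 74 nt from an annotated end, had 13 steps, a fold enrichment of 2.24 and 87 nt. EIF4G3 had 9 peaks, 3 of them in the long exon 14, and the tallest of these (chr1:20941811-20941881) had 10 steps, a fold enrichment of 3.11 and a caller p-value of 2.36e-05. Its 3'UTR peaks, 84 nt past the stop codon (chr1:20807107-20807363, caller p-value 0.0469) and 560 nt past it (chr1:20806631-20806887, caller p-value 0.00112), were both 257 nt long, with 3 steps and 5 steps and fold enrichments of 1.61 and 2.04. The starts of these peaks lay 476 nt apart, a spacing that recurred across the list (2001 pairs), and 12 members (10.3%) had a partner at it, beside 19.5% of all pairs.

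EIF4B, a cofactor of the helicase eIF4A, had 7 peaks, all of them also within TNS2-AS1, a noncoding gene of the opposite strand. The tallest was in exon 3 (chr12:53018810-53018871) and on an exon of TNS2-AS1, so its gene could not be assigned, with 12 steps, a fold enrichment of 3.26 and a caller p-value of 0.000447. In its 3'UTR a peak of 84 nt lay 1112 nt past the stop codon (chr12:53041294-53041377, caller p-value 0.00321), with 10 steps and a fold enrichment of 2.54. EIF4H, the related cofactor, had 1 intronic peak of 7 steps that touched an exon. The cap-binding protein gene EIF4E had 1 intronic peak of 1 step, with 4 copies of UGUA. EIF4E2, which encodes a cap-binding repressor, had 3 peaks, 1 of them also on an exon of a noncoding gene of the opposite strand, and its exon 2 peak printed above had the highest purine share of the members, 82.1%, at 7 steps and a fold enrichment of 2.37. The DEAD-box helicase genes EIF4A1, EIF4A2 and EIF4A3 had no peak, nor did EIF4E1B, EIF4E3 and EIF4G2. By comparison, 34 of 54 DDX and DHX helicase genes (63.0%) held 130 peaks, 70.0% of them with 5 or more steps. Over all protein-coding genes 33.4% held a peak, and 45.4% of pairs had 5 or more steps.

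Of the genes for inhibitors and partners of eIF4E, EIF4EBP2 had a CDS peak (chr10:70420014-70420126) of 12 steps with a fold enrichment of 3.20 and a caller p-value of 0.000697. Its 3'UTR peak (chr10:70425971-70426018, caller p-value 0.0375), 48 nt long and 4247 nt past the stop codon in a 3'UTR of 6871 nt, had 7 steps and a fold enrichment of 1.99. EIF4ENIF1, the transporter of eIF4E, had 2 intronic peaks of 1 step, in introns shared with DRG1 and SFI1 on the opposite strand. EIF4EBP1 and EIF4EBP3 had none. The eIF5A genes EIF5A, EIF5A2 and EIF5AL1, whose protein carries hypusine, had none.

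Height and fold enrichment gave different orders. The implied local background, obtained by solving that ratio, was near 1 for some of the tallest peaks. Thus EIF3A exon 16 and the EIF2S3 intron peak shared 19 steps, while the implied background was 1.00 and 0.0630 and the fold enrichment 2.66 and 5.01. An implied background over 0.5 was found for 12 members, all in EIF1, EIF2S2, EIF3A, EIF4G1 and EIF5B, with 13 to 21 steps and fold enrichments of 2.09 to 2.89. What set the background at these sites was not tested.

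**Figure D4:**
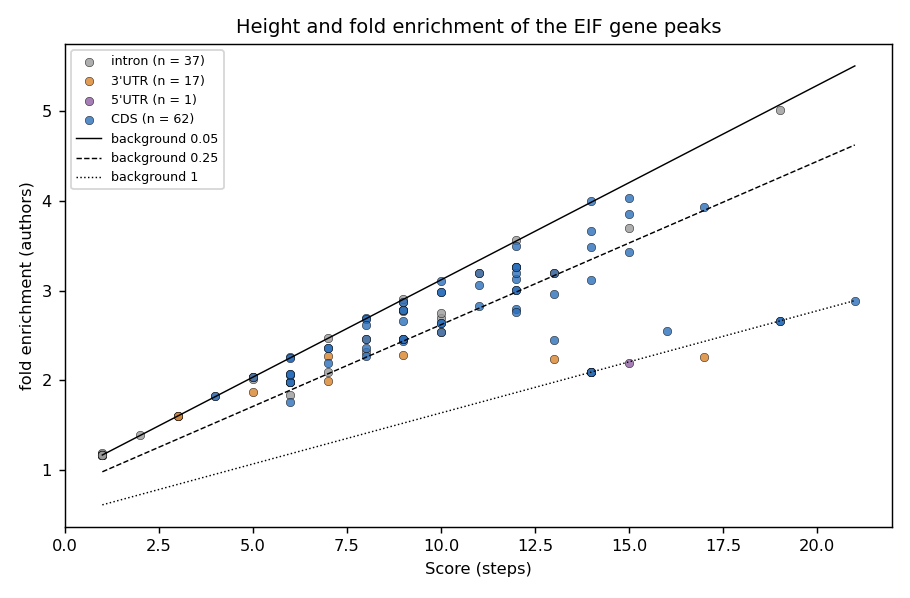
Score in steps (x axis) and the authors' fold enrichment (y axis) of the 117 members, coloured by region with CDS before UTRs; lines give the fold enrichment at an implied local background of 0.05, 0.25 and 1. The intronic EIF2S3 peak is the highest at 5.01, and the EIF2S2 peak of 21 steps lies on the line of background 1 at 2.89.

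UGUA was present on the gene strand in 34 members (29.1%, 21.04 to 38.2), beside 44.3% of all pairs. Among peaks with 5 or more steps the shares were 22.6% and 27.1%. In CDS the share was 24.2% of 62 members (14.2 to 36.7), an interval that held the 21.1% of all pairs. In 3'UTRs only 2 of 17 members held UGUA (11.8%, 1.46 to 36.4), those of EIF2AK4 and EIF5B, beside 49.5% of 3901 pairs in 3'UTRs. Per length the density was 1.53 per kb, from 3 copies, in the EIF 3'UTR peaks and 5.47 per kb in all 3'UTR peaks. The median length of these was 89 and 110 nt. They also differed in height, with 94.1% of the EIF 3'UTR peaks and 57.5% of all 3'UTR pairs at 5 or more steps. No 3'UTR share of UGUA was computed at equal height.

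The 17 3'UTR members lay in 13 genes, at a median of 217 nt past the stop codon and 1243 nt before the end of the main transcript. Positions are of midpoints. The peaks of EIF2AK4, EIF3A, EIF4G1 and EIF5B, and the EIF4G3 peak 84 nt past the stop codon, also reached back over the stop codon into CDS. These medians were 1017 nt and 1610.5 nt over the 3478 3'UTR pairs on a main transcript. Of the 17, 14 (82.4%) were nearer to the stop codon than to the main transcript's end, and 60.1% of the pairs were. Against the nearest end of any annotated transcript the count was 9 (52.9%), with 1 tie, beside 30.2% of the pairs. None of the 17 lay within 100 nt of the main transcript's end, where 2.99% of the pairs lay, and 4 lay within 100 nt of any annotated end (23.5%, beside 14.2%). The last 100 nt of the main transcript held UGUA in 10 of the 13 genes (76.9%), and in 62.7% of all 2171 genes with a 3'UTR peak. AAUAAA was found there in 9 (69.2%, beside 71.2%) and AUUAAA in 3 (23.1%, beside 25.5%). Poly(A) sites were not measured, and a match is a run of letters and not a site in use.

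Of the 37 intronic members, in 14 genes, 18 had 1 step and 15 had 5 or more (40.5%, against 12.5% of all intron pairs). Of those 15, 7 overlapped an exon and 8 did not. The latter 8 were 5 of EIF2S3, all in the last intron, and the 3 of EIF2D on RASSF5 exons.

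Purines were more frequent under exonic members than in the rest of all annotated exons of the same genes. The margin was smaller when EIF3A and EIF5B were left out. In the 20 genes with exonic bases both in and outside peaks, the purine share was 58.2% in peaks and 50.3% outside, a difference of 7.89 percentage points, and it was higher in peaks in 14 of the 20 (70.0%), as it was in 60.2% of all genes. Without EIF3A and EIF5B the difference was 3.77 points, and over all 4389 genes the difference was 1.68 points. Exons mix CDS, which is richer in purines, with UTRs. Within CDS alone the difference was 6.09 points over 18 genes and 1.92 points without EIF3A and EIF5B, with 8 of those 16 genes higher. Over all genes the CDS difference was 1.71 points, with 58.1% of the genes higher.

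The genes differed in this. In EIF3A, CDS in peaks was 66.6% purine and outside 58.0%, and the EIF3J shares were 73.4% and 63.2%. EIF5B was purine-rich throughout, with 65.4% in peaks and 63.8% outside. EIF2S2 (55.5% and 62.2%) and EIF2B1 (35.4% and 52.4%) went the other way, the latter on 48 nt. Codons of the charged residues lysine, arginine, glutamate and aspartate made up 56.0% of 425 codons in EIF3A peaks and 41.0% of the 941 outside, but 40.3% and 41.9% in EIF5B. UGUA in CDS went differently in these genes: EIF5B had 6 copies in 1266 nt of peaks and 4 in 2366 nt outside, and EIF3A had 0 in 1274 nt and 3 in 2824 nt.

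**Figure D5:**
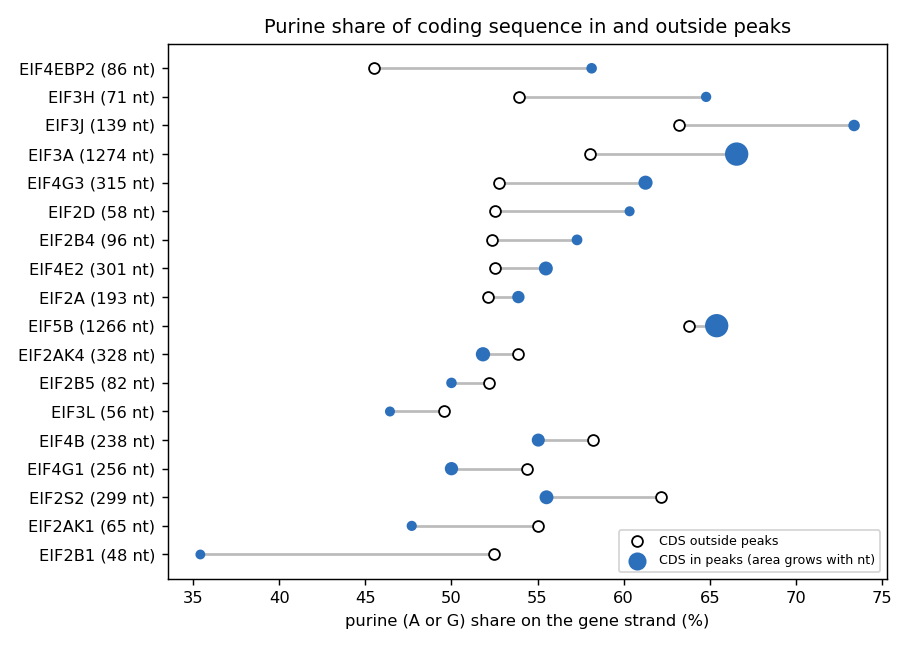
Purine share of coding sequence on the gene strand (x axis, %) in peaks (filled, area growing with the nt in peaks given beside each gene) and outside peaks (open) for 18 EIF genes. EIF3A stands at 66.6% in peaks and 58.0% outside, EIF5B at 65.4% and 63.8%, and 8 genes are lower in peaks.

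EIF genes with a peak had longer main transcripts with more exons than those without, as did genes at large. The median main transcript was 3063 nt with 13 exons for the 24 genes with a peak and 2773 nt with 8.5 exons for the other 32. Over all protein-coding genes these were 3977.5 nt and 11 exons with a peak, and 2464.5 nt and 6 exons without. The part of length in the peak counts was not tested.

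Among 30 other genes of translation, 15 (50%) held 48 peaks, beside 33.4% of all protein-coding genes with a peak. All 6 termination and recycling genes (ETF1, GSPT1, GSPT2, ABCE1, HBS1L and PELO) had a peak, 14 in total, none over 8 steps. Of 9 genes grouped under elongation by symbols that begin with EEF, only EEF1E1 and EEF2K had a peak. EEF1E1 had 10, all intronic and of up to 9 steps. EEF1A1 and EEF2 had none. Of 6 genes for poly(A)-binding proteins and their partners, PABPC1, PAIP1 and PAIP2 held a peak, and the tallest of PABPC1 had 20 steps. Other initiation genes with a peak were DENR, BZW2, DDX3X (7 peaks) and MTIF3, 4 of 9. Cytosolic ribosomal protein genes held 21 peaks in 15 of 89 genes (16.9%). Of these peaks 61.9% had 5 or more steps, beside 45.4% of all pairs.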

How the data were processed

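For 1 replicate, the authors ran fastp on the reads, deduplicated them by molecular identifier, discarded rRNA and mapped what was left to hg38 (aligner not given in the sources used here) and called peaks with MACS2. Whether the input served as control was not stated. The deposited list gave a fold enrichment (ratio), a p-value and an FDR (q-value) per peak, and a Score, a pileup signal taken from its values to be in whole steps of 0.2277. A q-value threshold of 0.05 is stated, but few deposited FDR values lie under it. These steps limit the measurements: no strand, no read totals and no replicate.

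Peaks were assigned by midpoint to GENCODE 44 genes (all transcripts of the gene), to a UTR first (the 3' before the 5'), then to CDS, a noncoding exon or an intron, and shares over all genes were computed alike over pairs of a peak and a gene. UGUA and purines were counted on the gene strand. Main transcripts were MANE Select or else canonical. Shares have exact Clopper-Pearson 95% intervals. Score, fold enrichment and p-value were given for the tallest peak of the 12 EIF genes with the highest Score (ties by fold enrichment), members with an FDR under 0.05, those in 3'UTRs or 5'UTRs, and the 5 genes with most peaks. No member lay over an annotated small RNA gene. The members and lists were chosen with earlier results of these data known. The sequences and positions of some peaks are not reported here. Counting was tested on simulated data. The tools were Python 3.11.15 with pysam 0.24.0 for sequence, scipy 1.17.1 for intervals, pandas 2.3.3 and numpy 2.4.6 for tables, and matplotlib 3.10.9.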

Additional observations from a re-analysis of the deposited data

How the results depend on the processing

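The values were recomputed under 63 combinations of result and setting: 43 stayed within the interval of the value given (or, for counts, within 1.5 times it) and 20 moved. For the purine difference that interval was 6.76 to 9.01 points. It counted bases as independent, which neighbouring bases of a peak are not, and took the share outside peaks as exact. An FDR under 0.05 left 1 peak in 1 gene, with a 3'UTR and CDS share of 0% and a share of 100% with 5 or more steps and with UGUA, and no purine value. A fold enrichment of at least 2 gave a CDS share of 54.1% and 100% with 5 or more steps, and a limit of 2 steps gave 93.9% with 5 or more. With CDS before UTRs the 3'UTR share was 14.5% and the CDS share 53.0%, and with 1 transcript per gene 14.5% and 52.1%. A limit of 5 steps gave a CDS share of 49.5%, beside 40.3% of all pairs at the same limit. With CDS first these shares were 65.6% (55.0 to 75.1) and 58.6%. Extension of peaks by 50 nt gave UGUA in 54.7% and a purine difference of 6.12 points, and the central 100 nt gave UGUA in 17.1%. Settings chosen after seeing the data were CDS bases only, a limit of 5 steps for the counts, and omission of EIF3A and EIF5B. The first gave a purine difference of 6.09 points and the second 93 peaks in 21 genes. The omission gave a purine difference of 3.77 points. With UTRs first it gave a CDS share of 21.2%, which turned from above to below the 22.5% of all pairs. With CDS first the share was 40%, above the 32.3% of all pairs. Any overlap with the gene body gave 118 peaks in 24 genes. No paired analysis was possible because the data analysed were 1 library.

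Depth was unknown, so an EIF gene without a listed peak may hold contacts that were not detectable. Of the 117 members, 27 lay in another gene too, and without them 90 peaks in 20 genes remained.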

Other observations

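Of 81 annotated pseudogenes named after EIF genes, 0 overlapped a peak. EIF genes with a peak had up to 9 named pseudogenes (EIF4B) and those without had up to 13 (EIF4A1), with medians of 0.5 and 0. How the authors treated reads that map to several places was not stated.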
